A study of Oryctolagus cuniculus with 6 samples.

Results

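The genes described here are the 10 that encode the intermediate filaments of retinal glia and neurons, chosen by name from the 28788 genes in the deposited tables. The 5 glial members are GFAP, VIM, NES, SYNM and DES, and the 5 neuronal members are NEFL, NEFM, NEFH, INA and PRPH. All 10 were matched by symbol, and all 10 passed the filter on low counts, which left 18697 genes for testing. They were read in 3 normal retinas and 3 retinas from a rabbit model of traumatic proliferative vitreoretinopathy (PVR). In the model, adult rabbits had the sclera punctured, some vitreous withdrawn and platelet-rich plasma, the platelet-rich fraction of blood, put in its place. The normal samples are labelled as normal retina only, so whether these eyes were punctured without plasma is not given in the sources used here. Neither are the rabbit strain, the interval before collection, the part of the retina taken and whether each sample is a separate animal. The p-values therefore measure the spread between these samples, which may be partly technical.

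Intermediate filaments are rope-like polymers that give cells mechanical strength, and each cell type builds them from its own set of proteins. In the retina, vimentin (VIM) is the filament protein of Mueller glia, the radial cells that span the whole tissue, while glial fibrillary acidic protein (GFAP) is made by astrocytes and is low in resting Mueller glia of most mammals. After retinal injury or detachment, Mueller glia are known to increase GFAP, which makes it the standard marker of reactive gliosis. Nestin (NES) is a filament protein of progenitor cells that also appears in reactive glia, synemin (SYNM) co-assembles with vimentin and desmin, and desmin (DES) is the filament of muscle cells and of many pericytes. The neurofilament light, medium and heavy chains (NEFL, NEFM and NEFH) and alpha-internexin (INA) form the filaments of axons, which in the retina belong chiefly to ganglion cells. Peripherin (PRPH) joins them in some neurons.

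FPKM and CPM are used throughout, and both come from the same reads. FPKM divides the count of a gene by its length and by the depth of the sample, and allows levels of different genes to be compared. CPM is the count scaled to a fixed library size with TMM factors, which correct for a few very abundant genes, and underlies the test. The samples held between 31904593 and 43035080 counted reads. Normal replicate 2 stood apart, because the 9 of 10 listed lens genes found in the files took 3.12% of its counts, against 0.00121% to 0.0308% in the other samples. GNAT1, the transducin subunit of rods, was abundant in all 6 samples, with 1933 to 3011 CPM. Reads per gene were compared with edgeR's quasi-likelihood F test across all 18697 genes, with p-values adjusted over all of them, and a gene was called when its adjusted p was under 0.05 and its log2 fold change beyond 1.

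None of the 10 members was called, against 1.01% of all genes tested. None had an adjusted p under 0.05 whatever its fold change, and 2 (GFAP and NES) had an unadjusted p under 0.05, both higher in PVR. Of all genes tested, 11.3% were higher in PVR at that unadjusted level. GFAP and NES were also the only members whose groups did not overlap, with every PVR sample above every normal sample, a pattern shown by 13.4% of all genes tested. The other 8 members overlapped between the groups. The share of all genes with every PVR sample below every normal sample is not given here. DESeq2, a second count test, gave 1 member an adjusted p under 0.05, NES, but with a fold change just short of the threshold. The plot of levels by sample shows the value of every member in every sample.

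**Figure D1:**
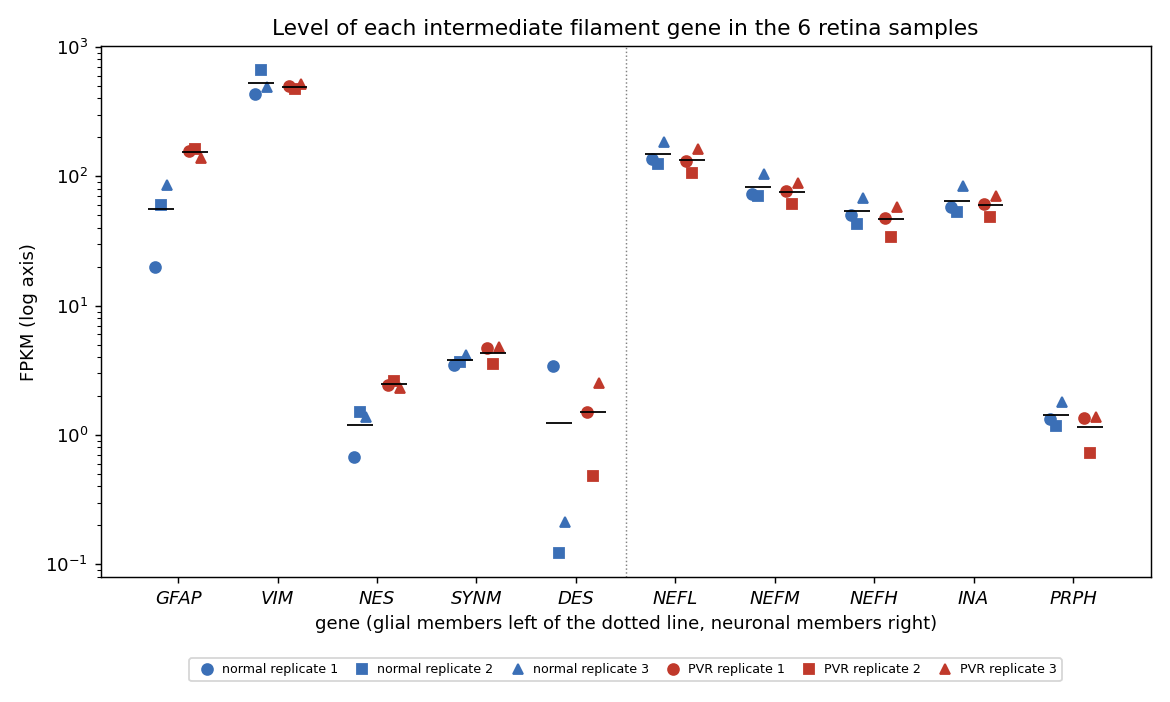
FPKM of each member in each sample on a log axis, with normal samples in blue, PVR samples in red, one symbol shape per replicate number and black lines at the group means. GFAP and NES are the genes in which all red points lie above all blue points, DES has the widest scatter, and the neuronal members overlap throughout.

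GFAP had the largest fitted difference between the groups among the members. Its FPKM was 20.0, 60.5 and 86.1 across the normal retinas, against 157, 164 and 138 across the PVR retinas. The 3 PVR retinas were close together, with a highest value 1.19 times the lowest, whereas the normal retinas spanned 4.30-fold. The lowest PVR sample was 1.58 times the highest normal sample in CPM. The mean FPKM was 55.5 ± 33.3 (SD, n = 3) in normal retina and 153 ± 13.6 (SD, n = 3) in PVR. The fitted log2 fold change was 1.39 (standard error 0.44, 95% interval 0.36 to 2.43, edgeR adjusted p = 0.143). In bulk tissue such as this, a different number of cells of a type and a different amount of RNA per cell cannot be told apart.

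The spread of GFAP lay in the normal retinas. Among the 10789 genes with a mean log2 CPM of at least 3, the ratio of the highest to the lowest normal sample had a median of 1.20 in CPM, and 98.6% of these genes had a smaller ratio than GFAP. In the PVR samples the GFAP ratio was 1.16, close to the median of 1.19. Without normal replicate 1, the sample with the least GFAP, the log2 fold change was 0.998 and the adjusted p 0.0691, the lowest of the 15 other settings tried. Without normal replicate 3, the normal sample with the most GFAP, the log2 fold change was 1.84 and the adjusted p 0.0834. Across all 15 settings the edgeR, DESeq2 or limma adjusted p of GFAP stayed above 0.05 and reached 0.365.

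GFAP in the normal retinas stood in the same order as the genes of oligodendrocytes, the myelin-forming glia. That order was not particular to them. The endothelial genes VWF (5.99, 15.9 and 23.8 CPM in normal replicates 1, 2 and 3), CDH5, CLDN5 and TEK had it too. KDR and PECAM1, also endothelial, did not. In the rabbit, myelinated axons, blood vessels and astrocytes run together in streaks on each side of the optic disc. The 7 oligodendrocyte genes summed to 213, 521 and 1143 CPM in normal replicates 1, 2 and 3, and to 136, 121 and 147 CPM in the PVR samples. Thus the normal retina with the most GFAP had the most myelin RNA, but the PVR retinas had the most GFAP of all and the least myelin RNA. Of these 7 genes, 2 (MOBP and MAG, both myelin components) were lower in PVR at an adjusted p under 0.05 and none was higher, against 0.615% of all genes lower and 1.09% higher at that level. The median log2 fold change of the 7 was -2.18, against -0.00884 for all genes tested. The part of this difference in the GFAP values was not tested.

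The genes of astrocytes gave a mixed picture. PAX2, a transcription factor of retinal and optic nerve astrocytes, had 31, 33 and 128 counts across the normal retinas, against 1, 0 and 4 across the PVR retinas (edgeR adjusted p = 0.0541). All PVR samples were below all normal samples. S100B, a calcium-binding protein of glia, had 20.9, 33.3 and 44.9 CPM in normal retina and 37.9, 36.3 and 40.7 CPM in PVR, so the groups overlapped. GJA1, the gap junction protein connexin 43, had 18.6, 32.6 and 43.8 CPM in normal retina and 60.1, 32.7 and 80.3 CPM in PVR. In the normal samples these 3 genes had their lowest value in replicate 1 and their highest in replicate 3, as GFAP did, but ALDH1L1, a folate enzyme of astrocytes, did not. It had 14.5, 15.9 and 12.9 CPM in normal retina and 10.98, 9.02 and 9.37 CPM in PVR, lower without overlap (log2 fold change -0.56, edgeR adjusted p = 0.112). Of the 5 astrocyte genes listed, 4 were tested and none had an adjusted p under 0.05, with a median log2 fold change of -0.17. SLC14A1 was at 0 counts in the normal samples and did not pass the filter. The summed level of the 5 genes ranged from 54.8 to 105 CPM in normal retina and from 78.0 to 131 CPM in PVR.

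NES had the pattern of GFAP at a far lower level. Its FPKM was 0.675, 1.49 and 1.38 across the normal retinas, against 2.44, 2.63 and 2.30 across the PVR retinas, from 137 to 318 counts and from 406 to 516 counts. Every PVR value was above every normal value, and normal replicate 1 was again the lowest sample. The log2 fold change was 0.98 (standard error 0.29, 95% interval 0.29 to 1.66, edgeR adjusted p = 0.128). With DESeq2 the adjusted p was 0.0122 at the same log2 fold change of 0.98, the lowest over the 15 settings, in which it reached 0.353. Over the 6 samples the log2 CPM of NES and GFAP had a Pearson correlation of 0.98, and only 5 of the 9600 genes with a symbol and a mean log2 CPM of at least 3 were more like GFAP. Those 5 were ANXA2, TMTC1, RPL23A, CTDSP2 and P3H2, with correlations from 0.98 to 0.99 over the same 6 samples, which share the difference between the groups. ANXA2, a membrane-binding annexin, had 9.53, 17.2 and 18.9 CPM in normal retina and 23.6, 25.3 and 21.1 CPM in PVR. None of the 5 had an adjusted p under 0.05 from edgeR.

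**Figure D2:**
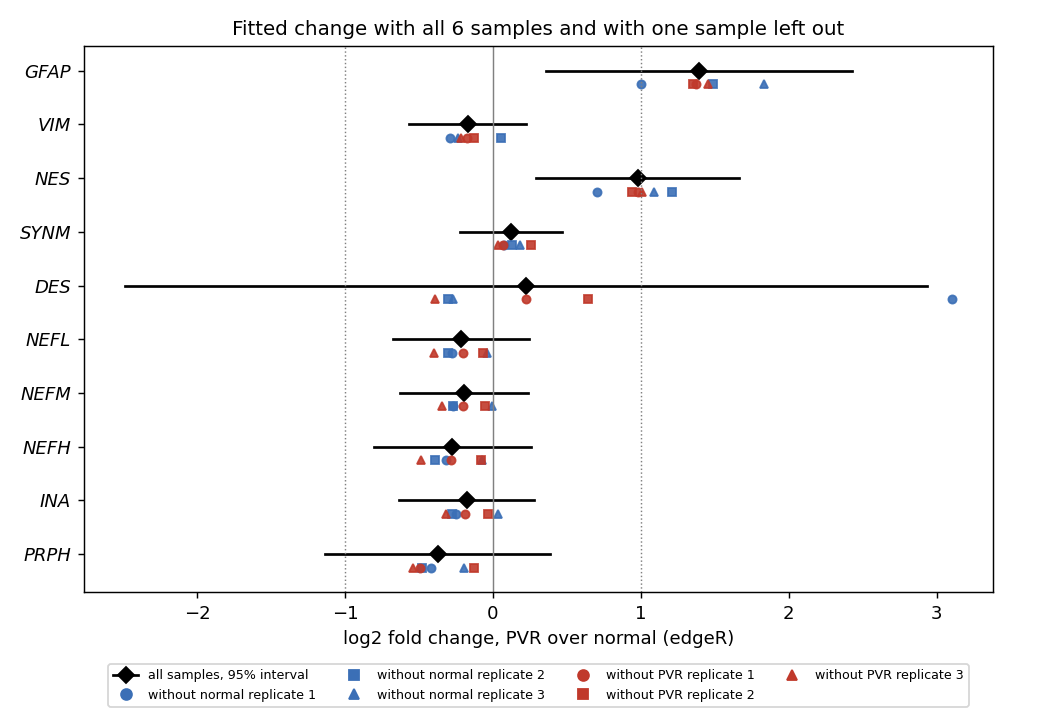
Fitted log2 fold change of each member, PVR over normal, with all 6 samples (black diamond, with its 95% interval) and with one sample left out (coloured symbols below it). Dotted lines mark the fold threshold of 1 in either direction. GFAP, NES and SYNM (0.034 to 0.26) lie to the right of 0 under every omission, and NEFL, NEFM, NEFH and PRPH to the left. DES moves from -0.39 to 3.10 with the sample left out.

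VIM was the most abundant member in every sample and differed little between the groups. Its FPKM was 434, 662 and 486 across the normal retinas, against 497, 469 and 513.5 across the PVR retinas. Normal replicate 2 had the highest value and the other 5 samples lay between 434 and 513.5. The log2 fold change was -0.17 (standard error 0.17, 95% interval -0.56 to 0.22, edgeR adjusted p = 0.586), which corresponds to a fold between 0.676 and 1.17. Vimentin is also a filament protein of lens cells, and normal replicate 2 was the sample with 32732 CPM of lens RNA. The PVR samples had 262 to 300.2 CPM of lens RNA, and normal replicates 1 and 3 had 15.6 and 12.2 CPM. Without normal replicate 2, the log2 fold change of VIM was 0.054, in the opposite direction. The part of lens RNA in the VIM value was not tested.

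The proportion of GFAP to VIM followed the GFAP values. The ratio of GFAP to VIM in FPKM was 0.0462, 0.0913 and 0.177 across the normal retinas, against 0.316, 0.350 and 0.268 across the PVR retinas, with no overlap between the groups, as for GFAP alone. The ratio was not tested, and its value in normal replicate 2 rests on the VIM level of the sample rich in lens RNA. GFAP made up 4.34%, 8.31% and 14.9% of the summed glial FPKM in normal retina, and 23.7%, 25.6% and 20.8% in PVR. By level among the 10 members, GFAP was number 6 in normal replicate 1 and number 4 in the other normal samples, and it was number 2 in PVR replicates 1 and 2 and number 3 in PVR replicate 3, behind VIM and NEFL. In normal retina its values overlapped with those of NEFM, INA and NEFH, and in PVR with those of NEFL. The rest of the order was much the same in both groups. VIM stood above every other member in all 6 samples, NEFL was above NEFM without overlap in either group, and NEFM, INA and NEFH followed with overlapping neighbours. SYNM was number 7 in every sample, and NES, DES and PRPH lay below it with overlapping values, except that NES was above PRPH in all PVR samples.

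SYNM and DES overlapped between the groups. SYNM, with FPKM values of 3.49, 3.69 and 4.16 in normal retina and 4.66, 3.54 and 4.75 in PVR, had a log2 fold change of 0.12 (95% interval -0.22 to 0.46, edgeR adjusted p = 0.654). The second PVR sample lay inside the normal range in FPKM, but below it in CPM (24.3 against 25.6 to 29.8 CPM). DES had 186, 7 and 12 counts across the normal retinas, against 68, 22 and 152 across the PVR retinas. Normal replicate 1 had the most DES and the other normal samples had the least, so the PVR samples fell inside the normal range. The log2 fold change of 0.22 had a 95% interval from -2.49 to 2.93 (edgeR adjusted p = 0.927). It was 3.10 without normal replicate 1, with an adjusted p of 0.183, the lowest over 14 settings (highest 0.956), and it was below 0 without normal replicate 2, normal replicate 3 or PVR replicate 3.

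Skeletal muscle genes were high in the sample with the most DES. ACTA1, the actin of skeletal muscle, had 414 counts in normal replicate 1 and 1 to 11 counts in the other samples. MYH1, a skeletal myosin, had 60 counts there and 0 to 5 elsewhere. The 4 of 7 listed skeletal muscle genes in the files summed to 305 CPM in normal replicate 1, 80.9 and 122 CPM in the other normal samples and 162 to 184 CPM in PVR, most of it from TTN, the giant sarcomere protein. Among 8 pericyte and smooth muscle genes, ACTA2, the smooth muscle actin that myofibroblasts also make, had 252, 67 and 466 counts in PVR and 64 to 116 in normal retina (edgeR adjusted p = 0.166). The PVR samples thus had the same order in ACTA2 and in DES, but the normal samples did not. In CPM, TAGLN, PDGFRB and CSPG4 of this list also had the DES order in PVR. MYH11 (1.38, 3.39 and 1.15 CPM in PVR), CNN1, LMOD1 and RGS5 did not. RGS5, a pericyte marker, had 133, 485 and 953 counts in normal retina and 3, 10 and 10 in PVR. It was the 1 gene of this list past an adjusted p of 0.05, against 0.615% of all genes lower at that level. The list had a median log2 fold change of 0.06, and its sum ranged from 22.6 to 54.5 CPM in normal retina and from 21.6 to 39.0 CPM in PVR. What share of the DES reads came from muscle or vessel wall was not tested.

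**Figure D3:**
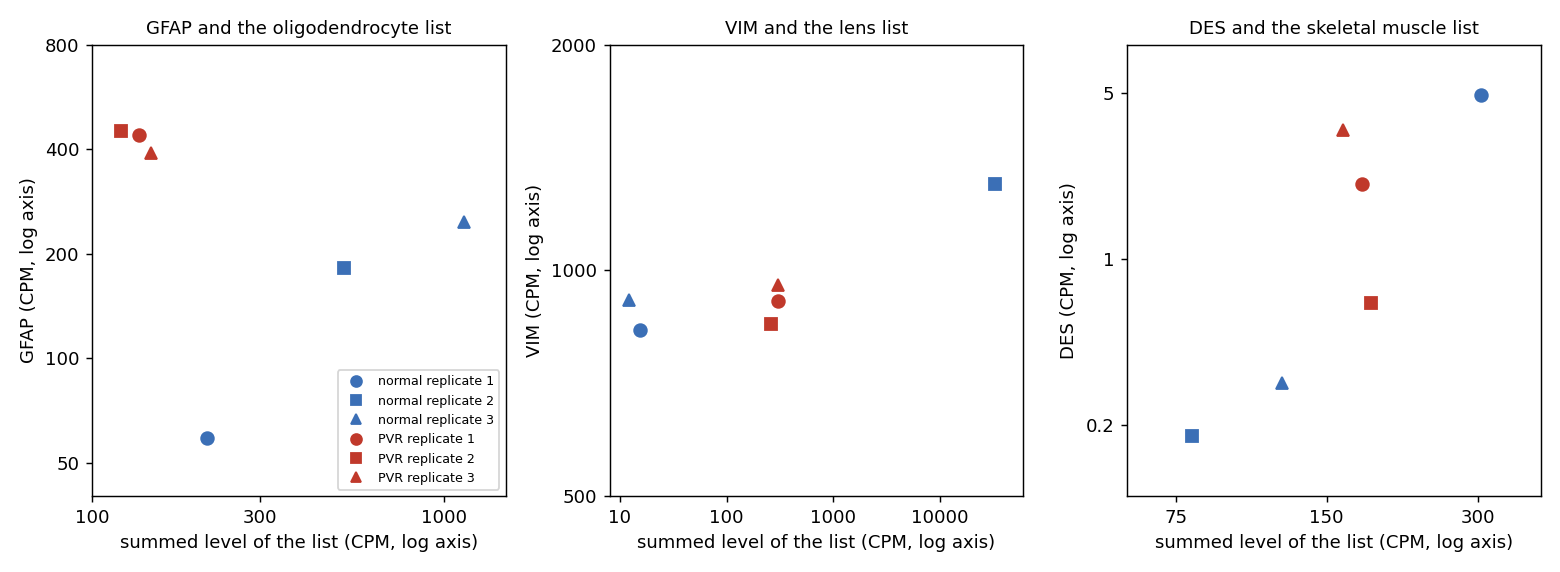
CPM of GFAP, VIM and DES in each sample against the summed CPM of the oligodendrocyte, lens and skeletal muscle gene lists, on log axes, with normal samples in blue and PVR samples in red. The normal samples with more oligodendrocyte RNA have more GFAP while the PVR samples have the least of that RNA and the most GFAP, normal replicate 2 has the most lens RNA and the most VIM, and normal replicate 1 has the most muscle RNA and the most DES.

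The neuronal filament genes were slightly lower in PVR by fit, and none by more than the spread between samples. NEFL, the chain on which the others assemble, had an FPKM of 135, 125 and 185 across the normal retinas, against 132, 106 and 163 across the PVR retinas. Normal replicate 3 was the highest sample and PVR replicate 2 the lowest, while the other 4 samples from both groups lay between. The fitted log2 fold change of NEFL was -0.22 (standard error 0.20, edgeR adjusted p = 0.552), and its 95% interval ran from 0.626 to 1.19 as a fold.

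The other chains had similar values. NEFM had an FPKM of 73.3, 71.0 and 104 in normal retina, against 76.8, 61.1 and 89.0 in PVR, and a fitted log2 fold change of -0.19 (95% interval -0.63 to 0.24, edgeR adjusted p = 0.572). NEFH, whose heavily phosphorylated tail spaces the filaments of large axons, had 50.05, 42.9 and 68.4 in normal retina and 47.2, 33.9 and 58.3 in PVR. Its log2 fold change was -0.27 (95% interval -0.81 to 0.26, edgeR adjusted p = 0.512). INA had 57.4, 53.1 and 83.4 in normal retina, against 61.0, 48.4 and 69.9 in PVR, with a fitted log2 fold change of -0.18 (95% interval -0.63 to 0.28, edgeR adjusted p = 0.626). For each of these chains, normal replicate 3 was the highest sample and PVR replicate 2 the lowest. Without normal replicate 3, the log2 fold changes of NEFL, NEFM and NEFH were -0.038, -0.0087 and -0.075, and that of INA was 0.037, in the opposite direction.

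PRPH was scarce in these retinas. It had 119, 109 and 164 counts across the normal retinas, against 98, 54 and 136 across the PVR retinas, or an FPKM of 0.729 to 1.79 over all samples. Its lowest sample was again PVR replicate 2 and its highest normal replicate 3. The log2 fold change was -0.37 (95% interval -1.13 to 0.39, edgeR adjusted p = 0.532).

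The proportions of NEFL, NEFM, NEFH and INA were far steadier than their levels, and that of PRPH was less steady. The ratio of NEFM to NEFL in FPKM lay between 0.543 and 0.582 over all 6 samples, a 1.07-fold range, although NEFL itself spanned 1.54-fold in the PVR samples and 1.48-fold in the normal samples. NEFH to NEFL lay between 0.320 and 0.371, and INA to NEFL between 0.424 and 0.463. PRPH to NEFL lay between 0.0069 and 0.0102, a 1.48-fold range. PRPH itself spanned 1.89-fold in the PVR samples and 1.53-fold in the normal samples. None of these ratios separated the groups. NEFL made up 41.5% to 42.7% of the summed neuronal FPKM in every sample, NEFM 23.1% to 24.4%, INA 18.1% to 19.4% and NEFH 13.6% to 15.8%. PRPH was under 1% throughout, between 0.292% and 0.422%. Over the 6 samples, the 6 pairs among NEFL, NEFM, NEFH and INA had Pearson correlations of log2 CPM from 0.97 to 0.99, and the 10 pairs with PRPH included reached down to 0.90. Between GFAP and the neuronal members the correlations were from -0.33 to -0.05.

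The neuronal filaments moved from sample to sample with the summed genes of retinal ganglion cells, but not with these alone. The 8 ganglion cell genes, among them the transcription factors POU4F1 and POU4F2, summed to 339, 338 and 460 CPM in the normal samples and to 336, 231 and 424 CPM in PVR. PVR replicate 2 was the lowest and normal replicate 3 the highest, as for the filaments. Of the single genes, POU4F2 was highest in normal replicate 1, and THY1 and SLC17A6 in PVR replicate 3. The same lowest and highest samples were found for the summed photoreceptor genes (27690 and 46238 CPM). They were also found for the summed axonal microtubule and transport genes (6675 and 8002 CPM). The ratio of the 5 summed filament genes to the 8 summed ganglion cell genes was 3.23, 3.08 and 3.26 across the normal retinas, against 3.12, 3.51 and 3.02 across the PVR retinas, so the groups overlapped. None of the 8 genes had an adjusted p under 0.05, and their median log2 fold change was -0.27, next to -0.22 for the 5 neuronal members. Horizontal cells also make neurofilaments. The median log2 fold change over 5 horizontal cell genes was 0.00105, none was past the threshold, and they had sums of 340 to 453 CPM in normal retina and 372 to 396 CPM in PVR. The highest sum was that of normal replicate 2, the sample rich in lens RNA, in which PROX1, a factor that lens cells also make, had 343 CPM against 216 to 261 CPM in the other samples. The part of lens RNA in that sum was not tested.

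**Figure D4:**
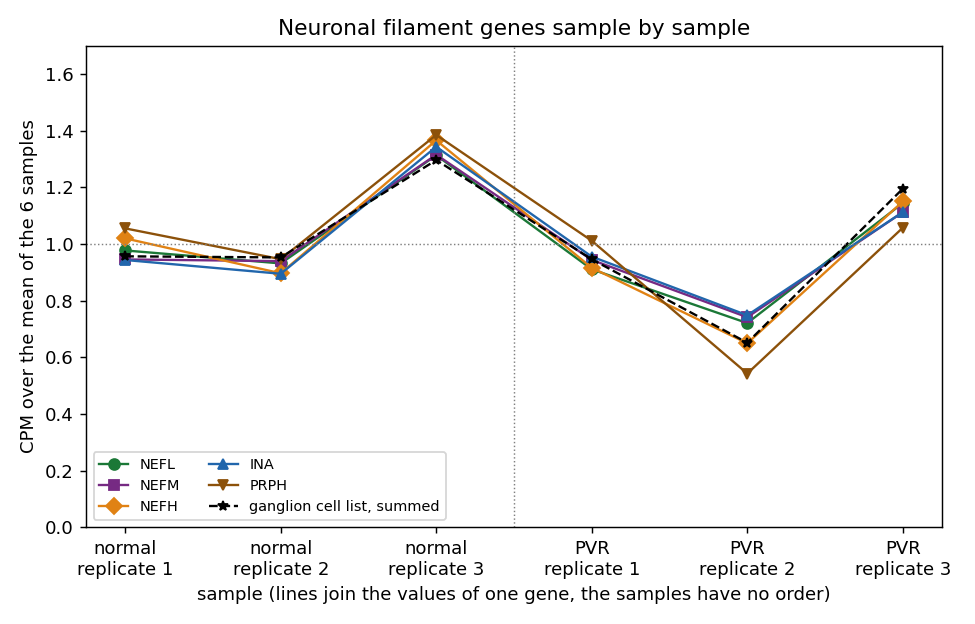
CPM of each neuronal member and of the summed ganglion cell list, divided by its own mean over the 6 samples, for each sample. The members run close together, at 1.31 to 1.39 times their means in normal replicate 3 and at 0.543 to 0.749 times in PVR replicate 2, and the normal and PVR samples overlap.

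The genes most like NEFL over the 6 samples were ARHGAP44, PVALB, FKBP4, ASTN1 and MAPT, with correlations of 0.993 to 0.997. NEFM was seventh, NEFH ninth and INA 19th in this order of 9600 genes. PVALB is a calcium-binding protein of some inhibitory and ganglion neurons, and MAPT is the axonal microtubule protein tau. MAPT had 164, 165 and 202 CPM in normal retina and 157, 133 and 180 CPM in PVR, and PVALB had 22.0, 21.5 and 28.5 CPM and 20.9, 17.0 and 24.5 CPM. None of these genes had an adjusted p under 0.05 from edgeR.

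The differences in the partners of the filaments were small, and some were without overlap between the groups. Of 10 axonal microtubule and transport genes none passed an adjusted p of 0.05, with a median log2 fold change of -0.14. KLC1, a light chain of the kinesin that carries neurofilaments, had a log2 fold change of -0.22 (edgeR adjusted p = 0.235), and DYNC1H1, the dynein heavy chain, of -0.26 (edgeR adjusted p = 0.224). Both were lower in PVR without overlap. KLC1 had 558 to 643 CPM in normal retina and 490 to 542 CPM in PVR, and DYNC1H1 had 1028 to 1199 CPM and 833 to 1011 CPM. The abundant MAP1B had 2192 to 2645 CPM in normal retina and 2365 to 2376 CPM in PVR. Of 7 linker genes, 6 were tested and none passed. DST, a plakin that ties filaments to actin and microtubules, had 1604 to 1753 CPM in normal retina and 2019 to 2122 CPM in PVR without overlap, with a log2 fold change of 0.30 (edgeR adjusted p = 0.103). MACF1, a plakin with 1833 to 2062 CPM in normal retina, overlapped, and the median of the linkers was 0.07.

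None of the enzymes, chaperones and related filament genes passed the threshold either. Of the 10 kinases and modifying enzymes 9 were tested, with a median log2 fold change of 0.05. CDK5R1, the activator through which CDK5 phosphorylates neurofilaments, had 120.5, 104 and 95.5 CPM in normal retina and 86.7, 74.2 and 90.6 CPM in PVR, a log2 fold change of -0.35 (edgeR adjusted p = 0.154). CDK5 itself, matched through its RefSeq identifier, had 0.735, 0.566 and 3.58 CPM in normal retina and 4.43, 6.70 and 11.4 CPM in PVR (edgeR adjusted p = 0.154). CDK5R1 was lower and CDK5 higher in PVR, both without overlap. Of the 7 chaperone and turnover genes none passed, with a median of -0.13, and CRYAB, a small heat shock protein that is also a lens crystallin, had 3335 CPM in normal replicate 2 and 40.6 to 95.4 CPM elsewhere. TRIM2, a ubiquitin ligase that acts on NEFL, had 297 to 337 CPM in normal retina and 299 to 348 CPM in PVR. The nuclear lamins LMNA and LMNB1 had log2 fold changes of 0.25 and 0.03, with overlapping groups. Of 7 other cytoplasmic filament genes 3 were tested, and KRT18, a keratin of simple epithelia, had 148, 157 and 65 counts in normal retina and 35, 30 and 40 in PVR, without overlap (log2 fold change -1.72, edgeR adjusted p = 0.0799). The 5 listed genes of the pigment epithelium, a simple epithelium, summed to 134 to 341 CPM in normal retina and 78.5 to 81.5 CPM in PVR. Of the 4 tested, 2 (LRAT and TTR) were lower at an adjusted p under 0.05, against 0.615% of all genes. The part of that tissue in the KRT18 value was not tested.

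Several genes that reactive glia are known to increase rose in PVR. Their list was chosen with earlier results of these data known, so its counts are a description and not an independent result. The paper had already reported higher STAT3 in its rabbit sequencing. Of the 11 genes listed, 9 were tested. Of these, 5 were higher at an adjusted p under 0.05, against 1.09% of all genes tested. None was lower, against 0.615% of all genes. The median log2 fold change of the list was 0.45. The 5 were STAT3, SOCS3, CEBPD, CD44 and EDNRB. STAT3, the transcription factor known to drive GFAP, had 76.7, 81.6 and 73.4 CPM in normal retina and 188, 198 and 151 CPM in PVR. EDNRB, an endothelin receptor of glia, had 23.1, 29.2 and 25.1 CPM in normal retina and 170.5, 196 and 157 CPM in PVR (log2 fold change 2.75, edgeR adjusted p = 0.000298). CEBPD, a transcription factor of the acute-phase response, had 5.80, 7.79 and 5.70 CPM in normal retina and 52.4, 44.1 and 57.4 CPM in PVR (edgeR adjusted p = 0.000652). SOCS3, a feedback inhibitor of STAT3, had 1.31, 1.52 and 1.43 CPM in normal retina and 13.9, 15.2 and 10.7 CPM in PVR (edgeR adjusted p = 0.0013). In none of these 4 genes did the normal samples follow the order of GFAP, whose normal values differed 4.21-fold in CPM. Among the other tested genes of the list, OSMR had that order, with 5.91, 7.23 and 9.66 CPM in normal retina. Its PVR values were 8.96, 10.1 and 9.86 CPM, so the groups overlapped. CD44, IL6ST, LIFR and CHI3L1 did not have the order of GFAP. LCN2 and SERPINA3 had too few counts to be tested.

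Among 8 genes of Mueller glia, 1 rose and 2 fell at an adjusted p under 0.05. Of all genes tested, 1.09% were higher and 0.615% lower at that level. CLU, the chaperone clusterin, rose with a log2 fold change of 1.07 (edgeR adjusted p = 0.00733). GLUL, the glutamine synthetase that clears glutamate, fell from 819, 929 and 1102 CPM to 464, 419 and 438 CPM (log2 fold change -1.11, edgeR adjusted p = 0.0125). RLBP1, a retinoid carrier, fell as well (log2 fold change -0.89, edgeR adjusted p = 0.0294). SOX9, the transcription factor of these cells, had 33.5 to 39.5 CPM in normal retina and 36.7 to 42.6 CPM in PVR. The list had a median log2 fold change of 0.03, and the VIM value lay within the range of its members.

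The remaining marker lists describe what else the samples held. For their counts, 0.615% of all genes tested were lower at an adjusted p under 0.05. Of 6 endothelial genes 2 (VWF and CDH5) fell and the list had a median log2 fold change of -2.44, although its sum, mostly KDR, was 385 to 462 CPM in normal retina and 451 to 475 CPM in PVR. Of 4 Schwann cell genes 1 (SOX10, shared with oligodendrocytes) fell, with sums of 4.26 to 34.6 CPM in normal retina and 2.30 to 2.53 CPM in PVR. The highest sum was that of normal replicate 2, the sample rich in lens RNA. PRX had 27.4 CPM there, against 0.893 to 1.37 CPM in the other samples. The part of lens RNA in that sum was not tested. None of the 6 macrophage and microglia genes passed, with sums of 25.9 to 63.6 CPM in normal retina and 66.5 to 92.4 CPM in PVR. None of the 7 photoreceptor genes passed, and their median log2 fold change was -0.31. The 8 lens genes tested had a median of -5.62 with none past the threshold, a direction that turned without normal replicate 2, where the median was 4.29 and 6 of the 8 were higher in PVR at an adjusted p under 0.05. The 2 skeletal muscle genes tested had a median of -0.31 with neither past it. Without normal replicate 2, which leaves 2 normal samples, 4 of the 9 reactive glia genes stayed past an adjusted p of 0.05 (all but CD44 of the 5), as did CLU, GLUL and VWF, while RLBP1, CDH5 and the genes called in the oligodendrocyte, pericyte, Schwann cell and pigment epithelium lists did not.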

How the data were processed

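RNA from 3 normal and 3 PVR retinas was sequenced as polyadenylated RNA. Per the labels and the methods of the study, the authors trimmed reads with fastp, aligned them with HISAT2 to OryCun2.0 and obtained gene counts from htseq-count. The deposited counts are raw. The authors also deposited FPKM values, and counts divided by FPKM gave one length per gene in all samples (largest relative difference 4.24e-09). The strand setting and annotation release are not given in the sources used here, so overlapping genes cannot be told apart. No positions are given, since the RefSeq table at hand is of mOryCun1.1 and served for names only.

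Testing used edgeR 4.0.16 under R 4.3.3 (default filter, TMM factors, quasi-likelihood F test, Benjamini-Hochberg adjustment over 18697 genes). Intervals are 95% and rest on the model's degrees of freedom. Alternatives were DESeq2 1.42.0, RLE and upper-quartile factors, no filter, at least 10 counts in every sample, limma 3.58.1 (voom, or FPKM on a log2 scale with a pseudocount of 1 or 0.1), omission of each sample in turn and a block for replicate number. The fits were tested on simulated counts. The lists were also read without normal replicate 2, an alternative chosen after the data were seen. Samples of one group differed by more than counting noise (chi-square per degree of freedom 19.6 to 185). At 31904593 to 43035080 counts a sample, depth leaves counting error small except for DES, PRPH and NES.

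The members and lists were chosen with earlier results of these data known. Lists were described by counts and medians, without a set test. Of 141 listed genes that are not members, 131 were matched by symbol, 4 through RefSeq identifiers and 6 not at all. Genes named are the members, up to 3 with the smallest p past an adjusted p of 0.05 and up to 2 of the highest mean CPM in each list, and the 5 genes most correlated with GFAP and with NEFL in log2 CPM (prior count 2). Other list genes named, such as ACTA1, MYH1, ACTA2, PAX2, S100B, ALDH1L1, GJA1, KRT18, CRYAB, GNAT1, STAT3, CD44, CDK5, CDK5R1, KLC1, DYNC1H1, TRIM2 and SOX9, were chosen after their values were seen. A comparison of protein sequences was planned and was not run. Python 3.11.15 and matplotlib 3.10.9 were used for tables and figures.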

Additional observations from a re-analysis of the deposited data

How the results depend on the processing

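No member was past both thresholds under any of the 15 alternatives. With DESeq2, 1 member (NES) had an adjusted p under 0.05, and none did under the other 14. Of 149 member values under the alternatives, 144 kept their direction. The 5 that reversed were VIM without normal replicate 2 (log2 fold change 0.054), INA without normal replicate 3 (0.037), and DES without normal replicate 2 (-0.30), normal replicate 3 (-0.27) and PVR replicate 3 (-0.39). With one sample left out, VIM ranged from -0.29 to 0.054, INA from -0.32 to 0.037 and DES from -0.39 to 3.10. DES had no value with at least 10 counts in every sample. The log2 fold change of GFAP ranged from 0.998 to 1.84 and that of NES from 0.68 to 1.21. Over all genes, 188 were past the thresholds, against 807 with DESeq2, 87 on the log2(FPKM + 1) scale, and 22 (without PVR replicate 1) to 436 (without PVR replicate 3) with one sample left out. The cause was not tested.

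Replicate numbers were not treated as pairs: the deviations of same-numbered samples correlated at -0.013, 0.073 and 0.042, and 3 of 6 samples correlated best with their own number. With the replicate block, 82 genes and no member were past the thresholds.

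Counting depth limits only the members with few reads, and DES (7 to 186 counts) most.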
